A study of Mus musculus with 6 samples.

Results

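The chromatin of 10 genes of the GDNF (glial cell line-derived neurotrophic factor) response of spermatogonial stem cells was examined in ATAC-seq peak lists of spermatogonia. The genes were the receptor genes Gfra1 and Ret, the transcriptional targets Etv5, Bcl6b, Id4, Lhx1 and Pou3f1, and the stem cell factors Nanos2, Eomes and Pax7. They were chosen by name, and every peak was taken that overlapped a gene from 10 kb upstream of its 5′ end to 10 kb past its 3′ end. The 10 genes were set beside 21440 protein-coding genes handled in the same way. Peaks of the 6 libraries were merged where they overlapped or touched, which gave 77 regions in the 10 windows of 158725 regions in all. ATAC-seq marks open chromatin, because the Tn5 transposase cuts accessible DNA and inserts sequencing adapters there.

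The study asked whether loss of SIRT7, a deacetylase that removes acetyl groups from lysine 36 of histone H3, altered chromatin accessibility in male germ cells. S7KO denotes Sirt7-/- mice, in which the knockout is not restricted to germ cells, and WT denotes wild-type mice. Both were of the same inbred background per the study, and the labels give no further treatment. Each library held 50000 cells from testes of postnatal day 5 (Pnd 5) males, enriched for spermatogonia by differential plating, a step in which somatic cells attach to the dish and germ cells are collected from the medium. There were 3 libraries per genotype, named by the replicate numbers of their titles (1, 2 and 4). A second label numbers the same libraries 2, 3 and 4 in the same order, and the numbers serve only as names. The study describes its ATAC-seq replicates as biologically independent. The labels do not state whether a library held cells of 1 animal or of a pool, so p-values compare only these libraries.

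GDNF is secreted by Sertoli and peritubular cells and maintains the stem cell pool. It binds GFRA1, a co-receptor anchored in the membrane of undifferentiated spermatogonia, and the complex activates the receptor tyrosine kinase RET. Signals from RET raise transcription of genes such as Etv5, Bcl6b, Id4, Lhx1 and Pou3f1, whose products are transcriptional regulators that sustain self-renewal, while NANOS2, EOMES and PAX7 mark or maintain the most primitive spermatogonia.

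The promoter sequences of the genes differed in CpG content, and the sequences below show its range, from Id4, Etv5 and Lhx1, which are dense in CpG, through Eomes, nearer the median of all genes, to Nanos2, with none. Each is the 250 bases upstream of the annotated start site, written 5′ to 3′ on the coding strand, from RefSeq (GRCm38.p6). Capitals mark every CpG dinucleotide. The positions are chr16:22439571-22439820 (minus strand) for Etv5, chr13:48260866-48261115 (plus) for Id4, chr11:84525535-84525784 (minus) for Lhx1, chr9:118477939-118478188 (plus) for Eomes and chr7:18987274-18987523 (plus) for Nanos2.
Etv5 upstream bases: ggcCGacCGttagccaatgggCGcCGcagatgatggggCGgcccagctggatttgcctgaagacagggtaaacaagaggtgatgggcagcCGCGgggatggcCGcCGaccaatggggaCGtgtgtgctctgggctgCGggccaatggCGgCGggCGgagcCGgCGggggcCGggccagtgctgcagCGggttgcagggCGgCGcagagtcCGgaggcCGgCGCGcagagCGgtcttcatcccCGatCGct
Id4 upstream bases: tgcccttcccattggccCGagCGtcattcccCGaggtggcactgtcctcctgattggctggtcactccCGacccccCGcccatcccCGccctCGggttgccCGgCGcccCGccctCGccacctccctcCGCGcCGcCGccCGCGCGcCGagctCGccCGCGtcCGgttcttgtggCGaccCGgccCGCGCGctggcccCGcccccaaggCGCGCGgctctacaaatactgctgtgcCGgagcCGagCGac
Lhx1 upstream bases: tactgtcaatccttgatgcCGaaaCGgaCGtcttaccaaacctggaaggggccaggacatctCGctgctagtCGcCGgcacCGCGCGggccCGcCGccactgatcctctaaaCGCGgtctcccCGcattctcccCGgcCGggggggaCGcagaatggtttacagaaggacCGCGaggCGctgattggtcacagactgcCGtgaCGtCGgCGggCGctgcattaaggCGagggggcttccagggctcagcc
Eomes upstream bases: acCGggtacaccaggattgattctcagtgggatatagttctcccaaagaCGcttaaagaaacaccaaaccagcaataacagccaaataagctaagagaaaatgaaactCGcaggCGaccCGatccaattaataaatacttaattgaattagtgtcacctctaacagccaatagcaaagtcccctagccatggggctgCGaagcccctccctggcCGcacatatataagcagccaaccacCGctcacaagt
Nanos2 upstream bases: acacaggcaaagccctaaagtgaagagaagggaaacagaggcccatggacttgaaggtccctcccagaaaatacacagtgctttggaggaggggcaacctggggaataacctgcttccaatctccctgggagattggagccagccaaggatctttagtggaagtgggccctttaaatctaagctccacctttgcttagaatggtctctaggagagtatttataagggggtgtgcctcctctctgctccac

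The window of RefSeq's table, which adds 50 bases past the start, held 39 CpGs at Id4, 37 at Etv5, 31 at Lhx1, 17 at Pax7, 12 at Gfra1 and 10 at Eomes, and a second start of Etv5 had 19. The window of Nanos2 held 0. The median over all 32851 windows was 7. The table held 7 of the 10 genes, and Ret, Bcl6b and Pou3f1 had no entry. Peaks lay over all 300 bases of the Gfra1, Id4, Lhx1, Eomes and Pax7 windows and of the first Etv5 window in all 6 libraries. The second Etv5 window was covered over 100 to 159 bases. No peak of any library touched the Nanos2 window. Among all windows, those with 0 to 4 CpGs lay under no peak in any library in 82.2% of cases and were fully covered in all 6 libraries in 3.73%. Windows with 15 or more CpGs were fully covered in all 6 libraries in 90.7% of cases, and windows with 5 to 14 in 37.3%. The uncovered Nanos2 start and the covered CpG-dense starts were thus each in the majority of their class. The second Etv5 window, with 19 CpGs and partial cover, was not. The fully covered Gfra1 and Eomes windows were in the 37.3% of the class with 5 to 14 CpGs.

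**Figure D1:**
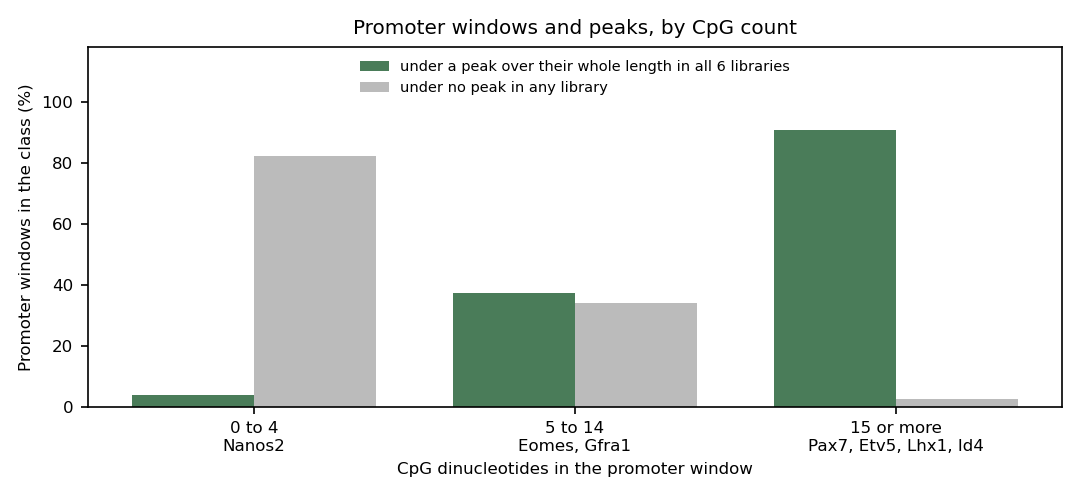
Share of RefSeq promoter windows (300 bases) that lay entirely under a peak in all 6 libraries (green) or under no peak in any library (grey), for 3 classes of CpG count given on the x axis with the genes whose windows fell in each. Full cover went from 3.73% with 0 to 4 CpGs to 90.7% with 15 or more, and Nanos2 was in the first class.

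Short motifs were counted in the same windows on both strands. CCAAT, the core of the NF-Y site, was present in 7 of the 8 windows of these genes (both Etv5 starts counted) and in 37.4% of all windows, and in the Etv5 first window it occurred 3 times. The ETS core CCGGAA was found in the Gfra1 window alone, against 14.9% of all windows. The E-box CAGCTG was found in the Gfra1 and the first Etv5 windows (16.3% of all), and TATAAA in the Nanos2 window alone (13.6%). The T-box core TCACAC (14.5% of all windows), the octamer ATGCAAAT (1.74%), the homeodomain core TAATTA (5.29%) and the STAT element TTCNNNGAA (8.30%) were in none of the 8. No string contains another. A match is a description of the letters only.

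Between 105754 and 133695 peaks were listed per library. Depth is not given in the lists, and the background coverage recovered from fold enrichment and p-value was 4.77, 5.20 and 6.07 in S7KO replicates 1, 2 and 4 and 4.78, 2.99 and 6.04 in the same WT replicates. WT replicate 2 was thus the shallowest library, and its peaks covered 81.5 Mb against 100.1 to 107.7 Mb in the others. Markers of testis cell types were checked with the same windows. A promoter peak was present in all 6 libraries for 7 of 7 spermatogonia and germ cell markers, 6 of 6 Sertoli, 5 of 6 Leydig, 5 of 5 peritubular or stromal, 2 of 3 endothelial and 1 of 3 blood markers, and 6 of 8 genes of other organs. By −log10 q the promoter peaks of these genes stood at a median 10.7% of their lists for the germ cell markers (a low percent is a strong peak), 16.98% for Sertoli, 20.5% for peritubular or stromal, 25.3% for endothelial, 25.8% for blood, 29.1% for Leydig and 36.8% for genes of other organs. A promoter peak in all 6 libraries was present for 74% of all protein-coding genes. Their median rank was 8.23%, a lower percent, and so stronger, than in each of these lists. The length under peaks, summed over each list, overlapped between genotypes. It was 52.9 to 57.1 kb in S7KO and 46.6 to 56.8 kb in WT for the germ cell markers, 47.1 to 53.0 and 42.6 to 51.0 kb for Sertoli, 24.6 to 26.0 and 20.1 to 26.2 kb for Leydig, and 34.0 to 36.0 and 32.4 to 37.0 kb for peritubular or stromal. The mean was higher in S7KO for 5 of 7, 6 of 6, 4 of 6 and 3 of 5 of these markers, against 77.7% of all genes. It was also higher in S7KO for 2 of 3 endothelial markers, 3 of 3 blood markers and 6 of 8 genes of other organs. Single markers without overlap were Pdgfra (stromal, higher in S7KO, as in 7.36% of all genes) and Cyp17a1 (Leydig, higher in WT, as in 0.589%) by length, and Gata4 (Sertoli) and Tex14 (germ cell), which ranked better in S7KO, as in 5.22%. Their part in the results was not tested. Sirt7, the deleted gene, had a promoter peak in all 6 libraries, ranked at 7.75% to 17.8% of the S7KO lists and 5.62% to 12.5% of the WT lists. The deleted part of the gene is not stated in the sources used here, so this peak does not check the labels. In bulk chromatin, fewer cells with a site open and less opening per cell cannot be told apart.

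All 10 genes had a peak within 3 kb of the 5′ end in all 6 libraries, as did 74% of protein-coding genes. Within 1 kb the count was 9 of 10, against 68.2% of genes, and Nanos2 had such a peak in 0 libraries. Peaks were compared by 3 values. The covered length is the total length under peaks in the window. The fold enrichment is the ratio of fragment pileup to local background, which for a broad peak is an average over its whole width. The rank is the place of a peak in its own list by −log10 q, as a percent of the list, so a low rank is a strong peak. The lists differ in length, so the rank can still move with depth. Promoter ranks were better in S7KO for 41.7%, 78.7% and 50.6% of all genes between same-numbered libraries 1, 2 and 4.

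The promoter peaks of these genes were wide and of modest fold enrichment, which is averaged over the width. The peak taken for Nanos2 lies over the start of Mypop, as described below. The median over the 10 genes was 2468 bp in width, 3.39 in fold enrichment and 16.4% in rank, against 1410 bp, 4.86 and 8.23% over all genes with such peaks. Covered length had a median of 6.36 kb, or 14.96% of the window, against 3.83 kb and 8.04%. By fold enrichment, which is not a length, the order of the genes was Ret, Etv5, Nanos2, Id4, Pou3f1, Bcl6b, Gfra1, Pax7, Eomes and Lhx1. In this order the ranges over the 6 libraries separated only Bcl6b from Gfra1 and Eomes from Lhx1, and all other neighbours overlapped.

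**Figure D2:**
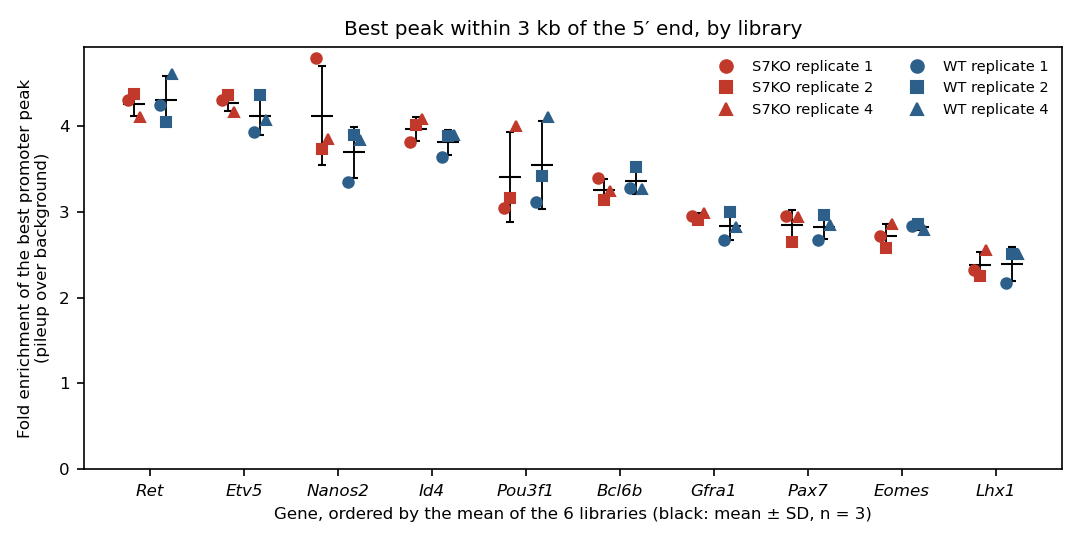
Fold enrichment (pileup over background, linear axis from 0) of the best-ranked peak within 3 kb of the 5′ end of each gene, one point per library, with the mean ± SD (n = 3) in black. Lhx1 was lowest at 2.39 on average and Ret highest at 4.28, and the genotypes overlapped within genes. The value plotted for Nanos2 belongs to a peak over the start of Mypop.

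Gfra1, the GDNF co-receptor (chr19:58235581-58455946, minus strand), had the longest window. It held 21 regions, 19 of them in the gene body, and every library had 16 of the 21. Its promoter region spanned 803 bp upstream to 2848 bp downstream of the 5′ end. The promoter peak ranked at 29.7% in S7KO replicate 1, 27.1% in replicate 2 and 23.2% in replicate 4, and WT gave 35.2%, 39.1% and 29.7% in the same order, which is kept from here on. The WT values were mostly higher, which is weaker, but the highest S7KO value lay just above the lowest WT value (mean 26.7 ± 3.28 against 34.7 ± 4.75, SD, n = 3, exact two-sided permutation p = 0.2). Its fold enrichment was 2.95 ± 0.0419 in S7KO and 2.84 ± 0.162 in WT.

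The strongest Gfra1 region was not at the promoter. It lay 186723 to 187539 bp downstream of the 5′ end in the gene body (chr19:58268407-58269223) and ranked at 10.4%, 11.7% and 13.9% in S7KO and at 10.7%, 14.1% and 15.2% in WT. The genotypes overlapped there. A region 205375 to 205702 bp downstream (chr19:58250244-58250571) was called in all 3 WT libraries, at 50.7%, 67.4% and 62.9%, and in S7KO replicate 1 alone, at 73.0%. Covered length in the window was 13.8, 15.3 and 15.7 kb in S7KO and 16.7, 11.8 and 15.2 kb in WT, and the WT range enclosed the S7KO values.

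Ret, the kinase of the receptor complex (chr6:118151748-118197744, minus strand), had a promoter peak that was narrower, 1411 to 1680 bp wide, and higher in fold enrichment. Its fold enrichment was 4.30, 4.38 and 4.11 in S7KO and 4.25, 4.05 and 4.61 in WT. A gene body region 6947 to 8069 bp downstream of the 5′ end (chr6:118189675-118190797) ranked better than the promoter in 5 of 6 libraries, at 4.74%, 5.76% and 11.1% in S7KO and 8.07%, 9.73% and 11.6% in WT, where the promoter ranked at 11.2%, 12.6% and 13.1% and at 11.1%, 17.9% and 10.2%. Both regions overlapped between genotypes. Covered length was 4.46 ± 0.0740 kb in S7KO and 4.22 ± 0.826 kb in WT (SD, n = 3).

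Etv5, which encodes an ETS transcription factor required for stem cell maintenance (chr16:22381313-22439570, minus strand), had the best-ranked promoter peak of the 10 genes. It ranked at 1.23%, 0.914% and 1.496% in S7KO and at 1.86%, 1.49% and 1.92% in WT. The S7KO ranks were lower on average, 1.21 ± 0.291 against 1.76 ± 0.229, but WT replicate 2 fell below S7KO replicate 4 (exact two-sided permutation p = 0.2). A region 41551 to 42256 bp downstream of the 5′ end in the gene body (chr16:22397314-22398019) ranked at 19.97%, 22.7% and 27.2% in S7KO and at 32.5%, 34.1% and 46.2% in WT. A region past the 3′ end, 66101 to 68338 bp downstream of the 5′ end (chr16:22371232-22373469), ranked at 69.5%, 63.6% and 67.1% in S7KO and at 76.2%, 84.6% and 87.9% in WT. In both, all S7KO libraries ranked better than all WT libraries. In the region past the 3′ end the peak was cut into pieces in S7KO replicates 1 and 4. Their best pieces lay 67607 to 68291 and 67607 to 67846 bp downstream, and their other pieces ranked at 94.2% and 96.0%. An uncut peak lay 66437 to 68270, 66101 to 67808 and 66101 to 68338 bp downstream in the WT libraries. Narrow pieces were thus ranked against wide peaks there.

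At the promoter and at the regions 6994 to 7655 and 9939 to 10964 bp downstream the ranks of the genotypes overlapped. A region 50146 to 50413 bp downstream was called in S7KO replicate 2, at 75.7%, and S7KO replicate 4, at 65.3%, and in 0 WT libraries. A region 29195 to 29878 bp downstream (chr16:22409692-22410375) was called in all 3 WT libraries, at 55.7%, 61.0% and 43.4%, and in S7KO replicate 2 alone, at 44.4%. Covered length was 5.35, 6.26 and 5.06 kb in S7KO and 6.63, 6.10 and 6.51 kb in WT, a difference of −0.857 kb (exact two-sided permutation p = 0.2). With a flank of 5 kb, which leaves out the region past the 3′ end, the difference was 0.029 kb.

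**Figure D3:**
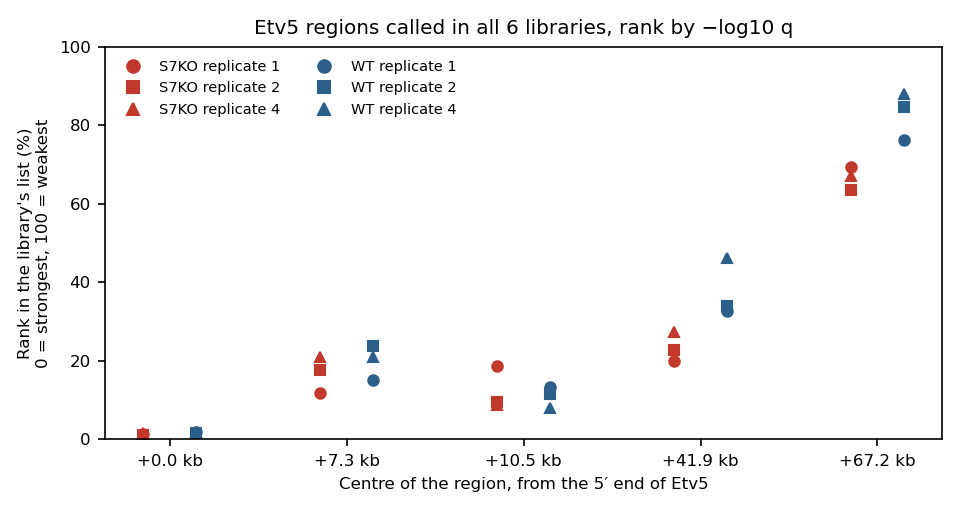
Rank of the best peak, as a percent of each library's list by −log10 q (0 is strongest), in the 5 Etv5 regions called in all 6 libraries, placed by the distance of their centres from the 5′ end, with one point per library. The S7KO points lie below the WT points at the 2 regions farthest from the 5′ end and overlap with them at the others. At the farthest region the points of S7KO replicates 1 and 4 are the best pieces of cut peaks.

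Over the windows, 59 of 77 regions were called in all 6 libraries (76.6%), against 57.1% of all regions. Of these 59, the peak ranked better in each S7KO library than in all WT libraries in 3 (5.08%), which is near the 5.98% of all such regions, and 0 ranked better in every WT library, against 1.35%. With equal numbers of peaks kept, the shares of all such regions were 3.17% and 3.31%, and the counts were 2 and 1. With all peaks kept, the 3 regions ranked better in S7KO were the 2 of Etv5 and 1 at Nanos2, described below. For each the exact two-sided permutation test gives p = 0.1, the smallest this design allows. Any region without overlap has this p-value, so it adds nothing to the lack of overlap. Some S7KO peaks were cut into pieces at the Etv5 region past the 3′ end and at the Nanos2 region. No region was called in all S7KO and no WT library (0.416% of all regions) or in all WT and no S7KO library (0.0743%). Only 1 region, 91457 to 91808 bp downstream of the Pax7 5′ end, was called in all S7KO libraries and at most 1 WT library, a pattern of 2.62% of all regions. The Gfra1 and Etv5 regions called in 3 WT and 1 S7KO library were 2 of 77, against 0.485% of all regions. Of the 18 regions not called in all 6 libraries, 14 were absent from WT replicate 2, the shallowest, and their best rank in any library was 43.4%.

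Bcl6b encodes a transcriptional repressor induced by GDNF (chr11:70224127-70229798, minus strand). Its promoter peak, 1868 to 2062 bp wide, ranked at 13.8%, 16.2% and 14.9% in S7KO and at 16.4%, 15.7% and 17.2% in WT. The lowest WT value lay below the highest S7KO value. The best-ranked regions of its window lay at other genes. The region 8132 to 9514 bp downstream, near the start of Slc16a13, ranked at 1.64% to 2.96%, and the region 7459 to 10526 bp upstream, over the start of 0610010K14Rik, at 1.18% to 5.05%. The upstream region also holds the 5′ end of the lncRNA gene Gm40191, 9213 bp upstream. The covered length, 7.07 ± 0.377 kb in S7KO and 7.04 ± 0.764 kb in WT, therefore includes neighbours.

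Id4 encodes an inhibitor of basic helix-loop-helix factors that is expressed in stem cells (chr13:48261116-48266028, plus strand). Its 3 regions were all called in the 6 libraries. The promoter peak ranked at 9.26%, 6.51% and 6.29% in S7KO and at 9.36%, 9.20% and 7.59% in WT, with fold enrichment of 3.97 ± 0.137 and 3.81 ± 0.144. The region 5818 to 6532 bp upstream ranked at 27.6%, 32.4% and 21.0% in S7KO and at 29.8%, 40.0% and 48.4% in WT. The region 12403 to 13182 bp downstream ranked at 35.4%, 25.2% and 27.6% in S7KO and at 29.9%, 35.9% and 20.7% in WT. At each of these the genotypes overlapped. The last region holds the 5′ end of the lncRNA gene A330048O09Rik, 12768 bp downstream. Covered length was 3.61, 2.96 and 3.73 kb in S7KO and 3.90, 3.68 and 3.62 kb in WT.

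Lhx1, a LIM-homeodomain factor gene (chr11:84517975-84525534, minus strand), had the widest promoter peak on average, 2451 to 4638 bp in width. Its fold enrichment was the lowest on average, at 2.33, 2.25 and 2.55 in S7KO and 2.17, 2.51 and 2.51 in WT. This width was at the 99.6th percentile of genes and the fold enrichment at the 0.851st. The promoter peak ranked at 55.8%, 54.3% and 39.5% in S7KO and at 58.7%, 60.6% and 47.4% in WT, and the genotypes overlapped. The strongest region of the window, at 0.441% to 0.906%, covered the start of Aatf. A downstream region 17278 to 18205 bp from the 5′ end ranked at 10.2%, 13.95% and 20.1% in S7KO and at 21.8%, 27.7% and 18.5% in WT, and the genotypes overlapped there too. Aatf starts 11950 bp downstream on the same strand, so this region lies beyond the Aatf start in its direction of transcription.

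Pou3f1 encodes a POU-domain factor (chr4:124657646-124660655, plus strand). Its promoter peak was 1777 to 3147 bp wide and ranked at 22.4%, 16.7% and 9.86% in S7KO and at 20.2%, 23.4% and 10.3% in WT. The strongest region lay 9280 to 11165 bp upstream (chr4:124646481-124648366), at 7.06%, 4.16% and 6.33% in S7KO and 3.04%, 5.31% and 7.28% in WT. In both regions the spread within a genotype was larger than the difference between them. Covered length was 3.91 ± 0.371 kb in S7KO and 3.54 ± 0.590 kb in WT.

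Nanos2 encodes an RNA-binding protein that keeps stem cells undifferentiated (chr7:18987524-18988962, plus strand). No peak of any library overlapped the gene or its 5′ end. The peak within 3 kb began 2626 to 2708 bp downstream of the 5′ end, past the end of Nanos2, and covered the start of Mypop, which lies 3716 bp downstream. It ranked at 4.98%, 9.004% and 7.88% in S7KO and at 13.5%, 11.3% and 9.39% in WT. All S7KO libraries ranked better than all WT libraries (exact two-sided permutation p = 0.1, adjusted p = 1 over all genes). In S7KO replicate 1 this peak was split and 1197 bp wide, against 2439 to 2584 bp in the other libraries, and its fold enrichment was 4.79 there and 3.36 to 3.90 elsewhere. Upstream of the gene, a region 8009 to 8596 bp away (chr7:18978928-18979515) ranked at 27.3%, 21.0% and 24.6% in S7KO and at 23.2%, 30.7% and 23.8% in WT. A second, 4536 to 5108 bp away (chr7:18982416-18982988), ranked at 62.5% to 81.4%. Both overlapped between genotypes.

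Nanos2 was the only gene of the 10 whose promoter peak ranked better in all S7KO than in all WT libraries, 1 of 10 against 5.22% of genes, and the peak is that at Mypop. The count in the other direction was 0, against 1.24%. With equal numbers of peaks kept per library the shares of all genes were 3.05% and 4.12%, and the counts over the 10 genes were 2 and 0. The mean rank was better in S7KO for 10 of 10 genes, against 67.3% of all genes. Without replicate 2 of both genotypes it was better in 7 of 10, against 43.3%. WT replicate 2 had the worst promoter rank of the 6 libraries in 6 genes, and the share of all genes by this rule was not taken. It ranked worse than S7KO replicate 2 in 78.7% of all genes.

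Eomes encodes a T-box factor expressed in a subset of GFRA1+ spermatogonia (chr9:118478186-118486132, plus strand). Its promoter peak was 3138 to 3550 bp wide, in the 99.0th percentile of genes, and ranked at 48.9%, 49.1% and 39.8% in S7KO and at 43.0%, 55.7% and 43.2% in WT. A downstream region 16001 to 16579 bp from the 5′ end (chr9:118494187-118494765) ranked better, at 9.70%, 13.04% and 19.1% in S7KO and 25.1%, 19.1% and 17.1% in WT. The genotypes overlapped at both. Peaks covered 32.4% of the window on average, a share at the 99.9th percentile of genes. Covered length was 9.48, 9.31 and 9.34 kb in S7KO and 9.45, 8.22 and 8.51 kb in WT, and WT replicate 1 lay within the S7KO range.

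Pax7 encodes a paired-box factor of rare spermatogonia and of muscle satellite cells (chr4:139737059-139833530, minus strand). It had the weakest promoter peak by rank, at 60.6%, 64.9% and 58.1% in S7KO and at 66.9%, 68.6% and 64.3% in WT. The means were 61.2 ± 3.44 and 66.6 ± 2.16 (exact two-sided permutation p = 0.2), and S7KO replicate 2 lay above WT replicate 4. Stronger regions lay in the gene body, at 12.4% to 24.6% for the one 95775 to 96573 bp downstream and at 10.4% to 25.3% for the one 14855 to 15488 bp downstream. The region called in all S7KO libraries and WT replicate 4 alone ranked at 97.0%, 82.5% and 68.5% in S7KO and at 91.6% in that WT library. Covered length was 10.96, 11.7 and 11.2 kb in S7KO and 11.6, 7.54 and 10.8 kb in WT, and the lowest value was in WT replicate 2.

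**Figure D4:**
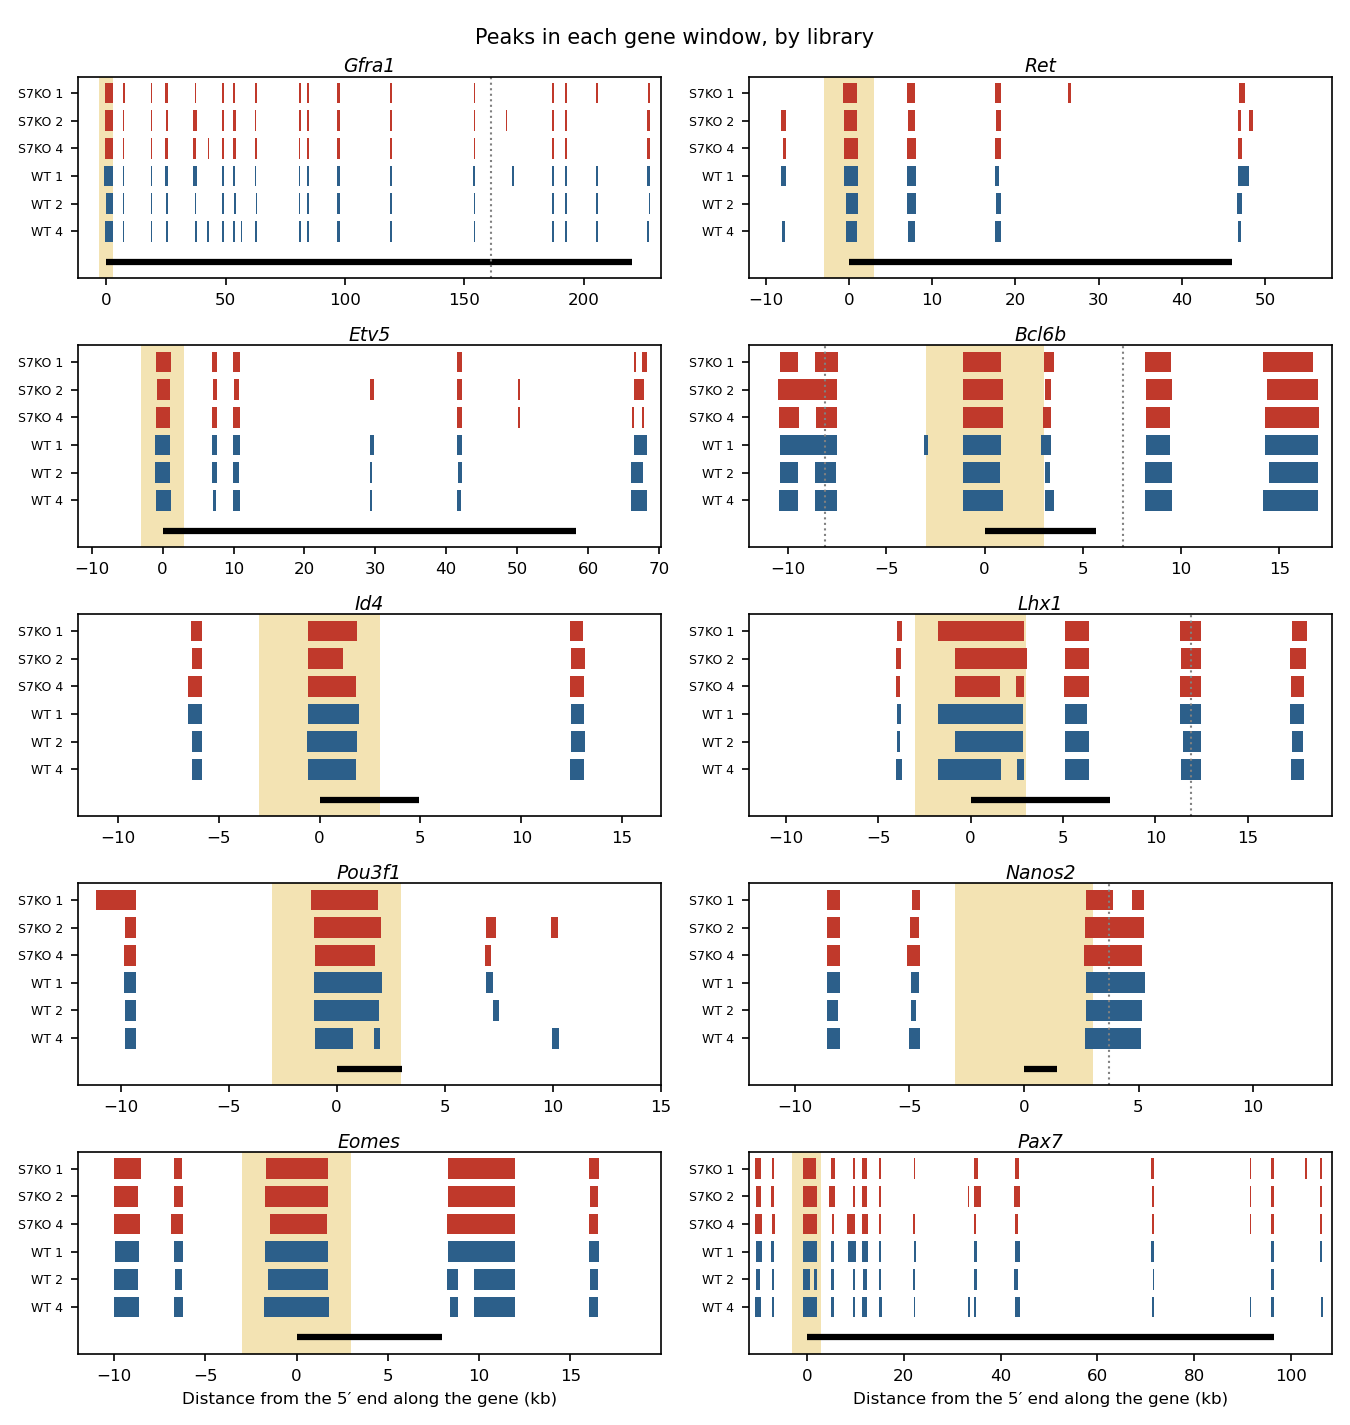
Peaks of each library (red S7KO, blue WT, 1 row per library) in each gene window, against distance in kb from the 5′ end along the gene. The black bar is the gene, shading is within 3 kb of the 5′ end, and dotted lines are 5′ ends of other protein-coding genes. The Nanos2 gene carries no peak, and most of the other peaks stand in all 6 rows.

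For each of the 10 genes the covered length overlapped between genotypes. The share of all genes with a peak in the window that were higher in every S7KO library was 7.36%, and 0.589% were higher in every WT library (6.55% and 1.45% with equal numbers of peaks). The 10 genes gave 0 in each direction, and every adjusted p was 1 (exact permutation test over 18512 genes). The means were higher in S7KO in 6 genes and in WT in 4, against 77.7% of all genes higher in S7KO. The largest differences in means were 1.31 kb in Pax7 and −0.857 kb in Etv5. The Pax7 difference was 0.0893 kb without WT replicate 2 and −0.113 kb with replicates 1 and 4 only. The order by covered length was Gfra1, Pax7, Eomes, Bcl6b, Lhx1, Etv5, Ret, Pou3f1, Id4 and Nanos2, in windows of unequal length. The lengths of Bcl6b, Lhx1 and Nanos2 include peaks at the starts of neighbouring protein-coding genes. The ranges over the 6 libraries separated Gfra1 from Pax7 and Eomes from Bcl6b, and all other neighbours in this order overlapped.

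**Figure D5:**
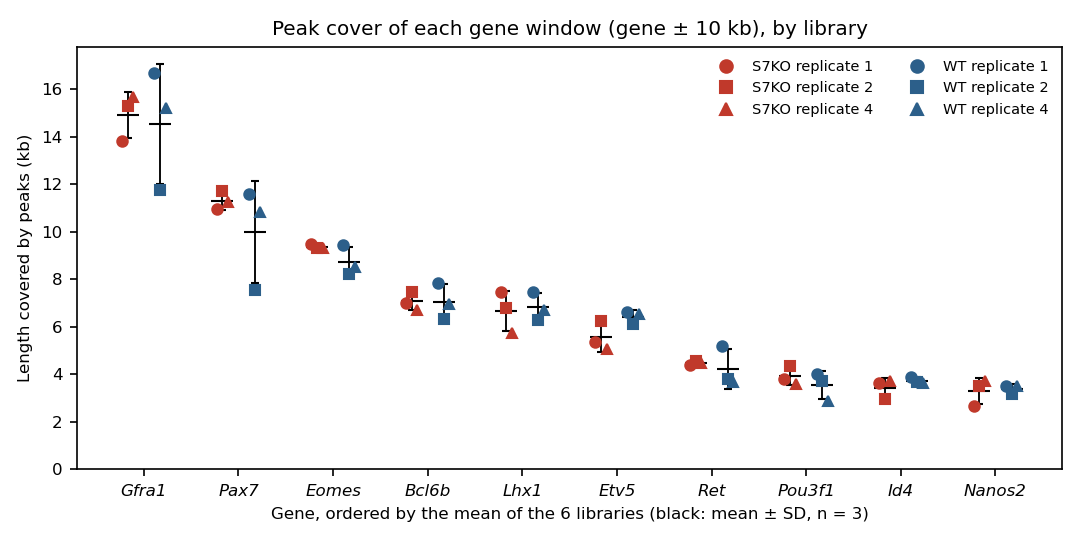
Length under peaks (kb, linear axis from 0) in the window of each gene (gene with 10 kb on each side), one point per library, mean ± SD (n = 3) in black. Gfra1 had 11.8 to 16.7 kb and Nanos2 2.67 to 3.69 kb, and the genotypes overlapped in each gene. The Nanos2 length includes the peak over the start of Mypop.

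The 5′ ends of lncRNA genes lie within the promoter regions of 6 of these genes, 203 bp upstream at Gfra1 (Gm41876), 126 bp upstream at Lhx1 (Lhx1os), 159 bp upstream at Pou3f1 (Gm2164), and 352 bp downstream at Pax7 (Gm46873), 546 bp downstream at Eomes (Gm33408) and 1507 bp downstream at Id4 (A330033J07Rik). ATAC-seq does not carry strand, so such a peak may belong to either start.

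Other genes of the pathway were taken as lists. Of 33 GDNF pathway genes, from ligands to adaptors and kinases, 33 had a promoter peak in all 6 libraries, with a median rank of 9.06%. Of 18 further GDNF-responsive or self-renewal genes, 18 did, with a median rank of 11.8%. Over all protein-coding genes the share was 74%, and the median rank of those genes was 8.23%, a stronger rank than in both lists. Covered length did not overlap between genotypes in 1 and 0 genes of these lists in S7KO (7.36% of all genes) and in 0 and 0 in WT (0.589%). Promoter ranks without overlap were better in S7KO for 1 and 2 of these genes (5.22% of all genes) and better in WT for 0 and 0 (1.24%). The gene with longer cover was Ncam1, an alternative receptor for GDNF bound to GFRA1, at 10.2, 9.19 and 11.5 kb in S7KO and 8.55, 8.03 and 9.13 kb in WT. The ligand Gdnf had 8.15 ± 0.852 kb in S7KO and 7.75 ± 0.941 kb in WT (SD, n = 3), and its promoter peak was low, at 2.23 to 2.43 fold. Among the co-receptors of related ligands, Gfra2 had 4.83 ± 0.363 against 4.46 ± 0.681 kb, Gfra3 4.42 ± 0.238 against 4.18 ± 0.325 kb and Gfra4 1.68 ± 0.0496 against 1.59 ± 0.209 kb. All 4 overlapped between genotypes.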

How the data were processed

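Per the labels, chromatin of 50000 enriched Pnd 5 spermatogonia per library was profiled by ATAC-seq in 3 S7KO and 3 WT libraries. Per the study's methods and processing notes, the authors trimmed reads (Trim Galore 0.6.6), aligned them to mm10 with Bowtie2 (2.4.4.1), filtered by mapping quality (SAMtools 1.19.2), removed mitochondrial reads, shifted ends for Tn5, kept fragments in a length range that begins above nucleosome-free length and called broad peaks with MACS2 (2.2.5). The study's text also speaks of calls on merged nucleosome-free profiles, while the deposited files hold 1 list per library, and which fragments entered them is not settled by the sources used here. The deposited columns are, per peak, a display score, a fold enrichment (a ratio of pileup to background), the −log10 p-value and the −log10 q-value, with a largest q-value of 0.0983. Counts were not used here, so DiffBind was not rerun. Lists called per library let cover move with depth.

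Gene ends came from RefSeq (GRCm38.p6), with strand from its promoter table or, for Ret, Bcl6b and Pou3f1, from GENCODE by symbol and chromosome. A strand was found for 21440 of 21887 protein-coding genes (98.0%). GRCm39 coordinates were not used. Chromosomes 1 to 19, X and Y entered. For each gene the covered length, the best promoter peak and its rank were taken per library (Python 3.11.15, numpy 2.4.6, scipy 1.17.1). Genotypes were compared with the exact permutation test (two-sided, 20 assignments, smallest p 0.1) and Benjamini-Hochberg adjustment over all genes. A gene or region is called where the genotypes do not overlap. The code was tested on simulated data. Background coverage was the percentile 1 of values solved for peaks under 300 bp. Alternatives were promoters within 1 kb, a flank of 5 kb, peak midpoints, −log10 q of at least 2, ranking by fold enrichment, equal numbers of peaks, gaps of 100 bp merged, left-out libraries and a replicate block.

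The members and lists were chosen with earlier results of these data known. Named regions were, in each window, the promoter region, the region with the best rank in its worst library, and each region called in all libraries of one genotype and at most 1 of the other. The Etv5 regions beyond that rule, and the further regions given at Bcl6b, Id4, Lhx1, Nanos2 and Pax7, were chosen after their values were seen.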

Additional observations from a re-analysis of the deposited data

How the results depend on the processing

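Counts without overlap over the 10 genes are given with the share of all genes by the same rule. For promoter rank, 1 gene was better in S7KO and 0 in WT. The S7KO count was 0 with promoters within 1 kb (5.14%), which drops the peak at Mypop, 2 with ranks by fold enrichment (6.2%), 2 with 105728 peaks kept in each library (3.05%) and 4 with replicates 1 and 4 only (11.6%). It ran from 1 to 4 with 1 library left out, at 3 without S7KO replicate 1 (12.9%), 3 without S7KO replicate 2 (8.21%), 2 without S7KO replicate 4 (9.86%), 1 without WT replicate 1 (11.1%), 3 without WT replicate 2 (8.22%) and 4 without WT replicate 4 (17.9%). In WT it was 0 to 1, with the 1 reached without WT replicate 2 (8.3%). With replicates 1 and 4 only the WT count was 1 for rank (13.1%), 1 for covered length (13.9%) and 1 for regions called in WT alone (1.02% of all regions). Covered length gave 0 to 3 genes higher in S7KO, with 3 without WT replicate 1 (17.6%) and 1 without S7KO replicate 1 (16.7%), and 0 to 1 higher in WT, with 1 without S7KO replicate 2 (1.68%), S7KO replicate 4 (1.75%) or WT replicate 2 (7.87%). Genotype-specific regions were 0 to 1 each way, with S7KO regions without S7KO replicate 1 (1.28% of all regions) or WT replicate 4 (1.87%) and WT regions without S7KO replicate 1 (0.154%) or S7KO replicate 2 (0.217%). Fewer libraries make a lack of overlap easier by construction. Regions ranked better in S7KO, 3 with all libraries, were 2 to 13 over the alternatives other than the block, and better in WT 0 to 9, against 3.17% to 18.6% and 1.41% to 11.1% of all such regions. The counts of regions by rank, and their values under these alternatives, were added after the data were seen. Of 110 alternative differences in covered length, 95 kept their direction. Deviations of same-numbered libraries correlated at 0.106, −0.00239 and 0.142, so the numbers are taken as names. With the replicate block, 6 genes ranked better in S7KO (16.4%), 1 had higher covered length in S7KO (21.5%), and 17 regions ranked better in S7KO (19.3%) and 2 in WT (5.94%).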

Other observations

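The wide promoter peaks were cut into pieces in some lists. The Lhx1 promoter held 2 peaks in S7KO replicate 4 and WT replicate 4, the deepest library of each genotype, and 1 in the other libraries. The Pou3f1 promoter held 2 peaks in WT replicate 4, and the Pax7 promoter 2 in WT replicate 2. Where a peak was cut, its best piece was narrower. The Pou3f1 piece in WT replicate 4 was 1777 bp wide with a fold enrichment of 4.11, against 2753 to 3147 bp and 3.05 to 4.01 in the other libraries. The Pax7 piece in WT replicate 2 was 1481 bp wide, against 2746 to 2992 bp elsewhere.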
